A study of Ictidomys tridecemlineatus with 31 samples.

Results

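The xenobiotic metabolism enzymes of the kidney were taken as the genes of the deposited table whose symbols place them in the cytochrome P450 families CYP1 to CYP4, the flavin-containing monooxygenases (FMO), the epoxide hydrolases (EPHX), the glutathione S-transferases (GST and the microsomal MGST), the UDP-glucuronosyltransferases (UGT1 and UGT2) and the sulfotransferases (SULT). By symbol alone, 54 of the 12863 rows matched, and keeping the row of highest mean for each symbol left 40 genes. They were 21 phase I genes (13 CYP, 5 FMO and 3 EPHX) and 19 phase II genes (10 GST, 2 MGST, 3 UGT and 4 SULT). The authors named 27 of the 40 from their best human match, and these symbols are printed in capitals. CYP3A4 or UGT1A9 thus means a squirrel gene whose best human match has that name. Where several rows carry a name, the row kept for its mean need not be the one most like the human gene. The other 13 carry names of the reference annotation, such as Mgst3.

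RNA was measured by RNA-seq in kidneys of untreated, captive 13-lined ground squirrels of both sexes, each kidney from 1 animal, in 6 states of the hibernation year. In the homeothermic, active part of the year, summer active (SA) animals were fattening in late summer and spring dark (SpD) animals stayed in the dark hibernaculum after their last torpor bout. In the heterothermic part, animals were entering torpor with falling body temperature (Ent), in early arousal and still cold (EAr), in late arousal and rewarming (LAr), or newly rewarmed in the interval between torpor bouts (IBA). All animals had been implanted with temperature devices, which set their state, and the labels give no age. The comparisons used 29 animals (16 females and 13 males), 4 in SA and 5 in each other state. Libraries of experiment 1 (9 animals, 3 each of IBA, Ent and SpD) and experiment 2 (20 animals) were made with different kits (Illumina TruSeq Stranded and Nugen Universal Plus), and SA, EAr and LAr came from experiment 2 alone. RNA came from a piece of kidney perfused to clear the blood, so the share of cortex and medulla can differ between kidneys.

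Phase I enzymes add or unmask a reactive group on a foreign compound, a steroid or a fatty acid, the CYP and FMO enzymes by oxidation and the epoxide hydrolases by adding water to an epoxide. Phase II enzymes then attach glutathione (GST, MGST), glucuronic acid (UGT) or sulfate (SULT), which makes the product easier to excrete in urine or bile. In the kidney these enzymes are known mainly from the proximal tubule, where transporters also take up and secrete their substrates, and ligand-activated receptors such as AHR, PXR and CAR are the best known controllers of their transcription.

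Values are the authors' batch-corrected rlog values on the log2 scale, on which a step of 1 is a 2-fold difference, and levels were not compared between genes because the values are not per length. Calls were made with limma at q under 0.001, the authors' threshold, and counts at q under 0.05 are given beside them, and a difference is always the first state named minus the second. In bulk kidney, fewer cells of a type and less RNA per cell cannot be told apart. Of the 40 genes, 36 reached the authors' filter level of 7 in at least 4 animals of all 6 groups. 3 genes, CYP2S1 and Sult2b1 among them, did so in no group of these 29 animals, and SULT1A2 only in SA, the state where it was highest, so its calls are no support for a difference. Counts over the 36 genes are therefore given too. Closely related copies share reads, so the split of signal within the CYP3A, CYP4A, GSTM, GSTA, FMO, SULT1A and UGT1A groups is uncertain.

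3 kidneys stood apart and are given first. K113 (LAr, male) and K137 (SA, female) were not in the comparisons, following the authors. K113 lay below all 5 other LAr kidneys in 30 of the 40 genes (75%), against 37.2% of all genes, with a median of -0.57 on the log2 scale against the LAr mean. K137 lay below the 4 other SA kidneys in 22 of 40 (55%), against 29.5% of all genes, with a median of -0.42. K130 (SpD, male), which stayed in the comparisons, lay below the 4 other SpD kidneys in 21 of 40 (52.5%), against 28.4% of all genes, with a median of -0.38. The mean rlog level of 6 proximal tubule markers of segments S1 and S2 was 13.35 in K113, 13.80 in K137 and 13.06 in K130, below every other kidney of their states. The markers of segment S3 were also below all others of the state in K113 (9.25) and K137 (10.14), but not in K130 (10.95). In K113 and K137 the largest shift was in 2 inner medulla markers. Their mean level was 14.08 in K113 against 9.31 to 9.66 in the other LAr kidneys. It was 14.66 in K137 against 9.32 to 11.41 in the other SA kidneys. In K130 it was 12.69, against 10.24 to 11.93 in the other SpD kidneys. The part of these marker levels in the results was not tested. Results that rest on K130 are given with and without it.

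**Figure D1:**
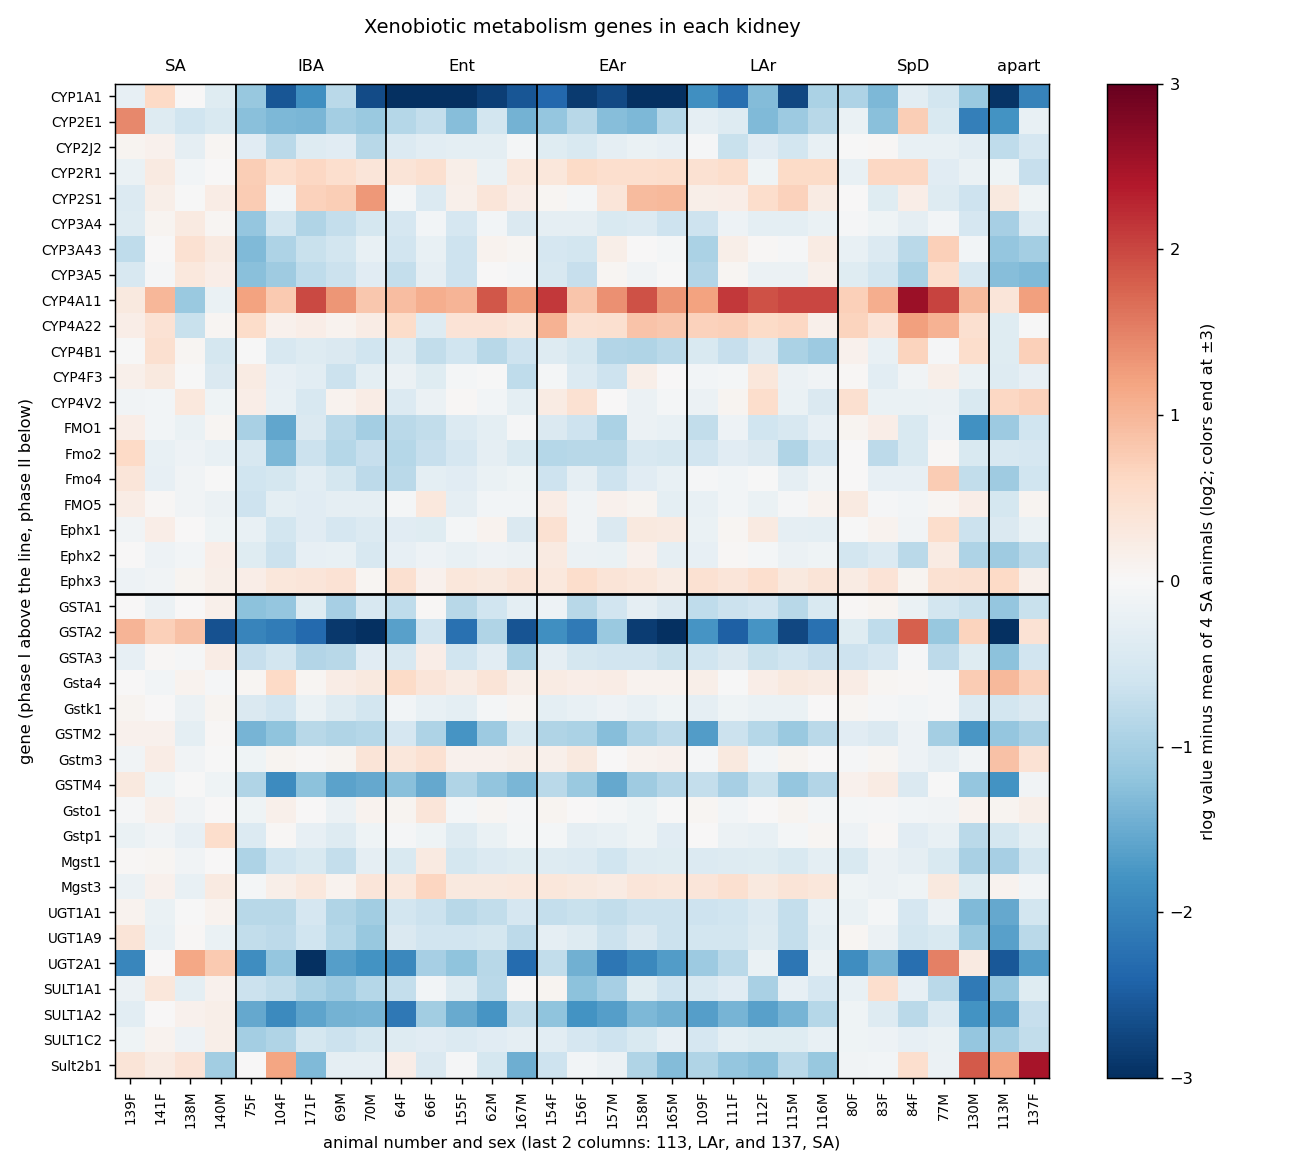
39 of the 40 genes (rows, phase I above the line) in each of 31 kidneys (columns, by state, with the animal number and sex), as the rlog value minus the mean of the 4 SA kidneys on the log2 scale. Blue covers most rows from IBA to LAr and is deepest in IBA for most genes, CYP4A11 is red in every state after SA, and K113 in the column next to last is blue in most rows.

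Most of these genes were at their highest in summer and their lowest in the warm interval between torpor bouts. The state mean was highest in SA for 25 of 40 genes (62.5%), against 24.7% of all genes, and lowest in IBA for 24 of 40 (60%), against 19.6% of all genes. Relative to SA, the median of the 40 genes was -0.57 in IBA, -0.32 in Ent, -0.41 in EAr, -0.33 in LAr and -0.22 in SpD, while the median of all genes stayed between -0.004 and 0.024. Phase II genes lay further below SA than phase I genes in IBA, with medians of -0.72 and -0.40, a difference that was not tested. The IBA animals enter the comparisons with SA, Ent, LAr and SpD and the SA animals those with IBA and SpD, so the pairs are not independent of each other.

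Taken kidney by kidney, the median over the 40 genes, relative to the mean of the 29 animals, was between 0.25 and 0.32 in the 4 SA kidneys and between -0.30 and -0.12 in the 5 IBA kidneys. The Ent, EAr and LAr kidneys lay between -0.09 and 0.08, and the SpD kidneys between -0.23 and 0.24. So SA lay wholly above and IBA wholly below the other 3 hibernation states. SpD lay wholly below SA and overlapped all 4 hibernation states, with K130 at -0.23 at its low end. Without K130 the SpD kidneys, at 0.058, 0.146, 0.175 and 0.24, lay wholly above IBA, Ent and EAr and overlapped LAr alone. The proximal tubule S1 and S2 markers were likewise highest in SA and lowest in IBA, with mean levels of 14.97 ± 0.14 (SD, n = 4) and 13.97 ± 0.45 (SD, n = 5). The states between were in another order than for the 40 genes, with 14.25 in Ent, 14.54 in EAr, 14.32 in LAr and 14.35 ± 0.82 (SD, n = 5) in SpD. In IBA against SA 5 of these 6 markers and 3 of 3 markers of segment S3 were lower at q under 0.05, and none of these 9 was called at q under 0.001. The part of proximal tubule content in the results on these enzymes was not tested.

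**Figure D2:**
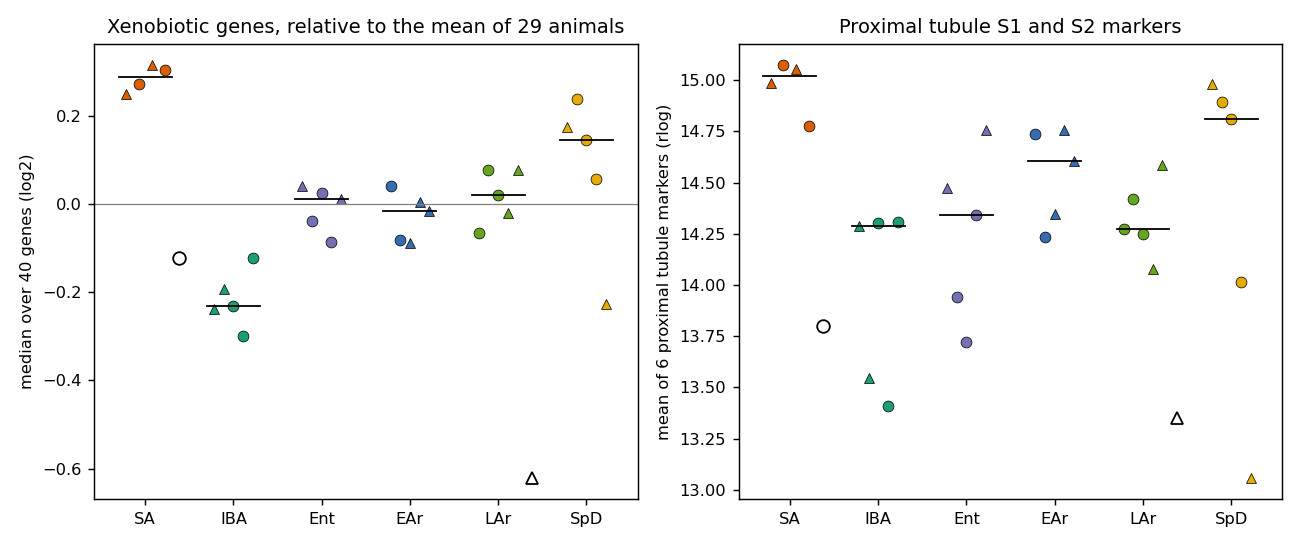
Left, the median of the 40 genes in each kidney relative to the mean of 29 animals (log2); right, the mean rlog level of 6 proximal tubule S1 and S2 markers in the same kidneys. Circles are females, triangles males, lines group medians and open symbols K137 (SA) and K113 (LAr), and the 4 SA kidneys sit at 0.25 to 0.32 on the left and 14.78 to 15.08 on the right.

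Across the 6 states, 5 of the 40 genes (12.5%) were called at q under 0.001, against 9.34% of all 12863 genes, and 26 (65%) at q under 0.05, against 46.1%. The 5 were CYP1A1, CYP4B1, GSTM4, SULT1A2 and UGT1A9. The share of the stricter calls was close to that of all genes. At q under 0.05, 13 of 21 phase I and 13 of 19 phase II genes were called. Among the 36 genes above the filter level in every group, 4 were called at q under 0.001 and 24 at q under 0.05. The count at q under 0.001 was 3 without the SA animal 138, and the count at q under 0.05 was 15 with K113 and K137 included.

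Between the hibernation states (IBA, Ent, EAr and LAr) and the active states (SA and SpD), 6 of 40 genes (15%) were called at q under 0.001, against 9.73% of all genes. CYP1A1, CYP4B1, GSTM4, GSTA2 and SULT1A2 were lower in hibernation, as were 5.29% of all genes, and Mgst3 was higher, as were 4.43%. At q under 0.05 it was 25 of 40 (62.5%), against 33.4% of all genes, and 19 of these were lower and 6 higher in hibernation. All genes divided almost evenly at that threshold, 16.8% lower and 16.6% higher. The median difference of the 40 genes was -0.29, and that of all genes was 0.0002. Among phase I genes 7 were lower and 4 higher (CYP2R1, CYP2S1, CYP4A11 and Ephx3), and among phase II genes 12 were lower and 2 higher (Gstm3 and Mgst3). Among the 36 genes above the filter level in every group, 5 were called at q under 0.001 and 22 at q under 0.05, 17 lower and 5 higher. Several cell markers were also lower in hibernation at q under 0.05, namely 3 of 3 of segment S3 (2 at q under 0.001, median -0.90), 2 of 6 of segments S1 and S2, 2 of 3 each of principal cells, intercalated cells and endothelium, 1 of 2 of the loop of Henle and 1 of 2 of the distal convoluted tubule, and none was higher. Their part in the seasonal result was not tested. Without K130 the count at q under 0.001 was 10. In experiment 2 alone the count at q under 0.05 was 13 of 40, against 39% of all genes. In that setting the 40 genes were thus not called more often than all genes.

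Of the pairs of states compared, IBA and SA differed in most of these genes. At q under 0.05, 28 of the 40 genes (70%) differed, against 22.9% of all genes, and 25 of them were lower in IBA, a direction that 12.5% of all genes took. 9 of the 25 were at least 2-fold lower, a share that was not counted over all genes. The median size of the difference, whatever its direction, was 0.70 in the 40 genes and 0.18 in all genes. CYP2R1, CYP4A11 and Ephx3 were higher in IBA, as were 10.4% of all genes. At q under 0.001 it was 5 genes (12.5%), against 3.15% of all genes, and CYP3A4, GSTM4, SULT1A2, UGT1A1 and UGT1A9 were all lower in IBA, as were 2.46% of all genes. The groups did not overlap in 22 of 40 genes (55%), against 18.8% of all genes, and 21 of the 22 were wholly lower in IBA, against 9.59% of all genes. SULT1A2, above the filter level in SA alone, is among the 21 and is no support. Among the 36 genes above the filter level in every group, 4 were called at q under 0.001 and 27 at q under 0.05, 24 lower and 3 higher. The median difference was -0.64 over the 40 genes and 0.03 over all genes. At q under 0.001 the count was 3 without the IBA animal 104, 2 without the SA animal 138, 2 without the SA animal 140 and 3 without the SA animal 141, and 1 both with all 31 animals and in experiment 2 alone, which holds 2 IBA animals. At q under 0.05 it was 17 with all 31 animals and between 21 and 28 with any 1 animal left out.

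**Figure D3:**
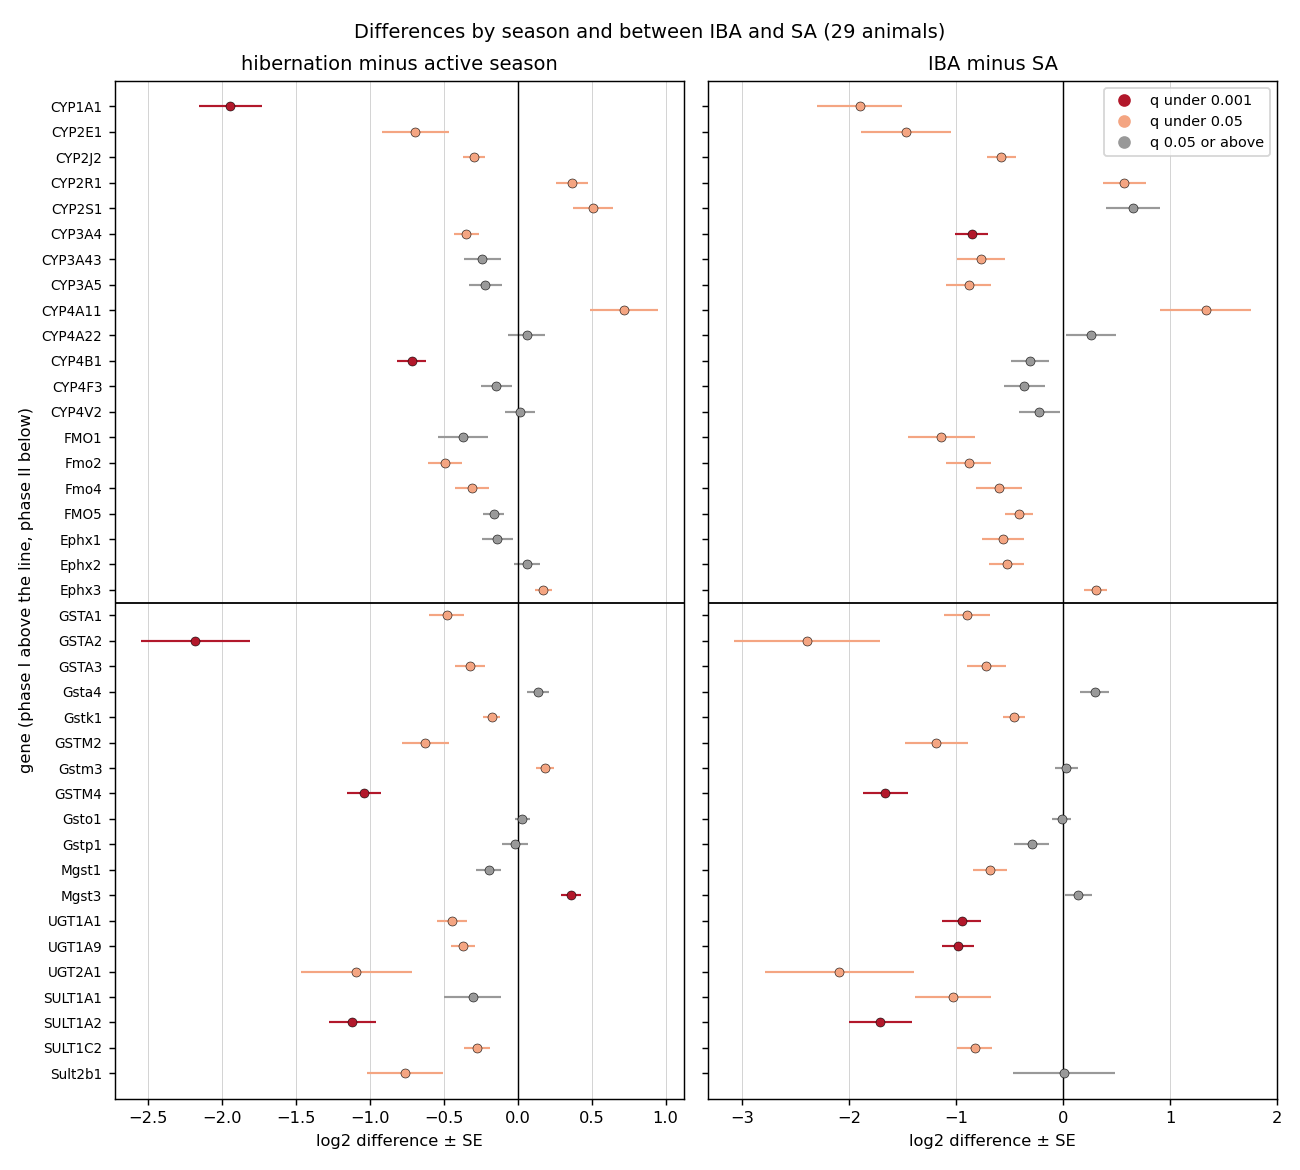
The difference of 39 of the 40 genes on the log2 scale with its SE from limma, hibernation minus active states on the left and IBA minus SA on the right, colored by q. Most points lie left of 0 in both panels, furthest for GSTA2 (-2.18 by season, -2.39 in IBA against SA), and CYP4A11 lies furthest to the right.

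CYP1A1, which oxidizes polycyclic aromatic compounds and is the best known target of AHR, had the lowest q of the 40 genes across states and shared the lowest by season with GSTM4. Its rlog values were 10.24, 10.37, 10.63 and 11.21 in SA and 9.27, 9.49, 9.70, 10.07 and 10.31 in SpD. In hibernation they were 7.92, 8.04, 8.77, 9.47 and 9.80 in IBA and 7.31, 7.55, 7.56, 7.79 and 8.05 in Ent. They were 7.33, 7.55, 7.74, 7.90 and 8.25 in EAr and 7.88, 8.36, 8.77, 9.31 and 9.66 in LAr. All 4 SA kidneys lay above all 20 kidneys of the hibernation states, and all SpD kidneys lay above all Ent and EAr kidneys but overlapped IBA and LAr. K137, an SA kidney not in the comparisons, was at 8.62, among the IBA and LAr kidneys. The difference between hibernation and active states was -1.94 ± 0.22 (SE) (q = 7.56e-07), and it was -2.13 in experiment 2 alone. Experiment 1 holds no SA, EAr or LAr, so its seasonal difference, here -1.34, is the mean of IBA and Ent minus SpD. Ent was lower than IBA by 1.15 on the log2 scale (a difference of -1.15 ± 0.34 (SE), q = 0.0267), a call lost in 6 of 36 other settings, with q up to 0.578 in experiment 2 alone. The call by season and that across states (q = 5.06e-06) were kept in every setting run.

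CYP4B1, a fatty acid and arylamine oxidizing enzyme, was the other CYP called across states (q = 9.40e-05). Its values were 8.72, 9.26, 9.31 and 9.74 in SA, 9.03, 9.21, 9.39, 9.79 and 9.92 in SpD and 8.66, 8.77, 8.82, 8.87 and 9.24 in IBA. They were 8.42, 8.52, 8.64, 8.65 and 8.88 in Ent, 8.36, 8.39, 8.45, 8.73 and 8.87 in EAr and 8.17, 8.30, 8.56, 8.79 and 8.82 in LAr. SpD was the highest state here, wholly above Ent, EAr and LAr, and SA lay within the range of SpD but for 1 male at 8.72, which lay among the hibernation kidneys. The difference by season was -0.72 ± 0.10 (SE) (q = 7.81e-06). It was -0.41 in experiment 1 (IBA and Ent minus SpD) and -0.97 in experiment 2. IBA and SA differed by -0.31 ± 0.18 (SE) (q = 0.217), so CYP4B1 was not among the genes called in that pair.

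**Figure D4:**
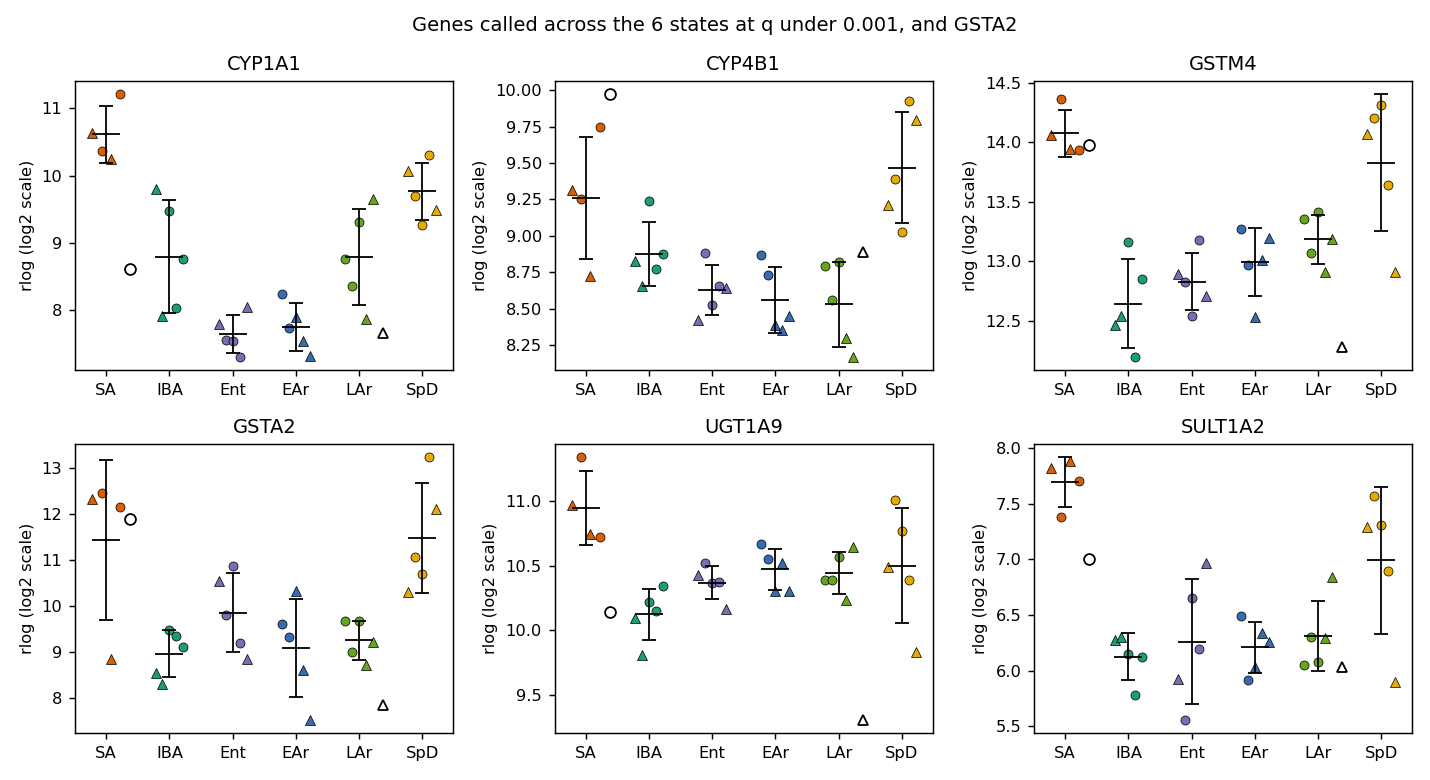
The rlog values (log2 scale) of CYP1A1, CYP4B1, GSTM4, GSTA2, UGT1A9 and SULT1A2 in each kidney by state, with the mean and SD as bars. Circles are females, triangles males and open symbols K137 (SA) and K113 (LAr). The 4 filled SA kidneys lie above all filled hibernation kidneys in CYP1A1, GSTM4, UGT1A9 and SULT1A2 but not in CYP4B1 or GSTA2, and K137 lies among the hibernation kidneys in CYP1A1 and UGT1A9. SULT1A2 reached the filter level in SA alone.

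The CYP3A genes, whose human relatives metabolize many drugs and steroids, fell in IBA. CYP3A4 was at 9.65, 10.10, 10.12 and 10.30 in SA and 8.87, 9.14, 9.34, 9.50 and 9.52 in IBA, with no overlap and a difference of -0.85 ± 0.15 (SE) (q = 4.67e-04). In Ent it was at 9.54, 9.54, 9.61, 9.96 and 9.97, again wholly above IBA (0.45 ± 0.13 (SE), q = 0.026), and in SpD at 9.55, 9.76, 9.93, 9.95 and 9.996, wholly above IBA (0.56 ± 0.13 (SE), q = 0.00684). The values in between were 9.43, 9.58, 9.63, 9.77 and 9.78 in EAr and 9.42, 9.75, 9.75, 9.85 and 9.90 in LAr. IBA was below the states on either side of it, though the Ent call was lost in 6 of 36 other settings, among them without IBA 75, IBA 69, Ent 62 or Ent 66, with 0.24 (q = 0.583) in experiment 2 alone. The SpD call was lost in experiment 2 alone. The call of CYP3A4 in IBA against SA at q under 0.001 was lost in 6 of 36 other settings, among them without the SA animals 138, 140 or 141 and without the IBA animal 171, with q up to 0.0111.

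CYP3A5 and CYP3A43 followed the same course at q under 0.05 in IBA against SA, with -0.88 ± 0.21 (SE) (q = 0.00427) and -0.77 ± 0.23 (SE) (q = 0.0176). Both were also lower in IBA than in LAr, with -0.72 ± 0.20 (SE) (q = 0.0149) and -0.72 ± 0.22 (SE) (q = 0.0229). Neither differed by season at q under 0.05. With K113 and K137 included, neither CYP3A5 nor CYP3A43 was called in either pair. CYP3A43 was also not called in IBA against SA without SA 141, or in IBA against LAr without LAr 111 or 112.

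CYP2E1, which oxidizes ethanol and small solvents, was at 12.58, 12.74, 12.80 and 14.62 in SA and 11.81, 11.83, 11.94, 12.08 and 12.17 in IBA, without overlap (-1.47 ± 0.42 (SE), q = 0.0145). The SA female 139 at 14.62 stood well above the other 3, and without it CYP2E1 was not called at q under 0.05. CYP2J2, an arachidonic acid epoxygenase, was lower in IBA than SA by -0.58 ± 0.14 (SE) (q = 0.00475) and higher in SpD than IBA by 0.40 ± 0.12 (SE) (q = 0.0297), both without overlap. The SpD call of CYP2J2 was lost in 7 of 36 other settings, among them without IBA 70, IBA 104, SpD 80 or SpD 83. CYP2R1, a vitamin D 25-hydroxylase, went the other way. It was at 8.02, 8.13, 8.25 and 8.50 in SA and 8.58, 8.72, 8.73, 8.84 and 8.97 in IBA (0.57 ± 0.20 (SE), q = 0.0395), and it was the 1 gene of the 40 (2.5%) wholly higher in IBA than in SA, against 9.17% of all genes. This call was lost in 12 of 36 other settings, among them without SA 138, 139 or 140 or IBA 69, 75, 104 or 171, with q up to 0.124. CYP2S1, at rlog means of 5.97 to 6.89, was lower in SpD than in IBA (-0.92 ± 0.21 (SE), q = 0.00647), under the filter level throughout.

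CYP4A11 and CYP4A22, named after fatty acid omega-hydroxylases that are known targets of PPARA, were lowest in SA. CYP4A11 was at 10.43, 11.35, 11.84 and 12.55 in SA, 12.33, 12.35, 12.75, 12.86 and 13.53 in IBA and 12.26, 12.48, 12.62, 13.57 and 14.11 in SpD. Its difference was 1.33 ± 0.43 (SE) (q = 0.0264) for IBA minus SA and -1.58 ± 0.43 (SE) (q = 0.0219) for SA minus SpD. It was thus low in summer and not in both active states. CYP4A22 was lower in SA than in SpD (-0.79 ± 0.23 (SE), q = 0.033), while IBA and SA differed by 0.26 ± 0.23 (SE) (q = 0.44). The SA male 138 had the lowest value of both genes, and leaving it out ended all 3 of these calls. The call of CYP4A11 in IBA against SA was also lost without the SA animal 140 or the IBA animal 171, and the SA and SpD calls of both genes without the SA animal 140 or the SpD animals 84 or 130, that of CYP4A22 also without the SA animal 139. 2 of the 3 rows named CYP4A11 were higher in IBA than in SA at q under 0.05, and a row of lower mean (CYP4A11_like_gene2138) was higher in hibernation by 1.44 ± 0.23 (SE) (q = 4.44e-05). The remaining row (CYP4A11_like_gene2141) differed by 0.063 ± 0.13 (SE) (q = 0.743). CYP4F3 (q = 0.351) and CYP4V2 (q = 0.25) were not called in any comparison at q under 0.05, and their state means spanned 0.28 each.

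Of the FMO genes, which oxidize nitrogen and sulfur compounds, FMO1, Fmo2, Fmo4 and FMO5 were lower in IBA than in SA at q under 0.05. FMO1, the main form of rodent kidney, was at 12.59, 12.71, 12.86 and 13.00 in SA and 11.23, 11.77, 11.83, 11.98 and 12.36 in IBA (-1.14 ± 0.31 (SE), q = 0.0112), and without the IBA animal 104 it was not called. Fmo2 was lower in IBA by -0.88 ± 0.21 (SE) (q = 0.00438) and by season by -0.49 ± 0.11 (SE) (q = 0.00182). FMO5 returned in Ent (0.33 ± 0.11 (SE), q = 0.0493, lost in 25 of 36 other settings) and was higher in SpD than IBA (0.45 ± 0.11 (SE), q = 0.00991), with all Ent, LAr and SpD kidneys above all IBA kidneys. Fmo4 passed in IBA against SA only narrowly (q = 0.0488) and lost the call in 26 of 36 other settings. A second row named FMO1 (FMO1_gene3727), at a lower level, was called across states (q = 2.54e-05) and by season (-0.93 ± 0.11 (SE), q = 1.99e-06), and so was a second FMO5 row (FMO5_like_gene24805, -0.54 ± 0.082 (SE) by season, q = 3.26e-05).

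The 3 epoxide hydrolases differed between IBA and SA by less than 2-fold. Ephx1, the microsomal enzyme, was at 12.77, 12.80, 12.91 and 13.09 in SA and 12.34, 12.38, 12.49, 12.57 and 12.67 in IBA (-0.56 ± 0.19 (SE), q = 0.0374). Ephx2, the soluble enzyme of fatty acid epoxides, was lower in IBA than SA (-0.53 ± 0.16 (SE), q = 0.0223) and higher in SA than SpD (0.63 ± 0.16 (SE), q = 0.0191). Without K130, the SpD animal 84 or the SA animal 140 the SA and SpD call of Ephx2 was lost, and its IBA and SA call without IBA 104 or SA 139 or 140. The call of Ephx1 was lost in 10 of 36 other settings, among them without K130, SA 138, 140 or 141 or IBA 69, 70 or 104. Ephx3 was higher in IBA than SA (0.30 ± 0.10 (SE), q = 0.039) and lower in SA than SpD (-0.36 ± 0.10 (SE), q = 0.0308). Those calls of Ephx3 were lost in 8 and 6 of 35 other settings, both without K130 and without SA 139 or 141.

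Among the phase II genes, GSTM4, a cytosolic mu class glutathione transferase, had the lowest q in IBA against SA. It was at 13.93, 13.95, 14.06 and 14.36 in SA, 12.91, 13.64, 14.07, 14.20 and 14.31 in SpD and 12.20, 12.47, 12.54, 12.85 and 13.17 in IBA. It was at 12.54, 12.71, 12.82, 12.89 and 13.18 in Ent, 12.53, 12.97, 13.01, 13.19 and 13.27 in EAr and 12.91, 13.07, 13.19, 13.36 and 13.41 in LAr. All SA kidneys and 4 of 5 SpD kidneys lay above all 20 hibernation kidneys, and K130 was the SpD kidney at 12.91. The differences were -1.04 ± 0.12 (SE) by season (q = 7.56e-07), -1.66 ± 0.21 (SE) for IBA minus SA (q = 1.96e-05), -0.75 ± 0.20 (SE) for IBA minus LAr (q = 0.0138) and 1.18 ± 0.18 (SE) for SpD minus IBA (q = 2.15e-04). Of the 40 genes, GSTM4 was the only one called at q under 0.001 in SpD against IBA, a call lost without any 1 of the IBA animals 69, 70 and 104 or the SpD animals 80 and 83. The season difference was -1.42 within experiment 1 (IBA and Ent minus SpD) and -0.80 within experiment 2. A row carrying the reference name Gstm4 did not follow (0.049 ± 0.066 (SE) by season, q = 0.592), while another (GSTM4_like_gene26308) was lower in hibernation (-0.82 ± 0.21 (SE), q = 0.0039). The 3 rows and those of GSTM2 and Gstm3 are neighbors in the RefSeq annotation, and reads of such copies may be divided among them.

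GSTA2, an alpha class transferase that also reduces lipid peroxides, had the largest seasonal difference of the 40 genes. It was at 8.84, 12.17, 12.33 and 12.46 in SA and 10.30, 10.69, 11.08, 12.11 and 13.25 in SpD. In hibernation it was at 8.31, 8.55, 9.12, 9.35 and 9.48 in IBA, 8.86, 9.21, 9.81, 10.54 and 10.88 in Ent, 7.53, 8.61, 9.34, 9.62 and 10.33 in EAr and 8.71, 8.99, 9.21, 9.67 and 9.69 in LAr. 3 of 4 SA kidneys lay above every hibernation kidney, and the SA male 140 lay at 8.84 among them. The difference by season was -2.18 ± 0.37 (SE) (q = 1.01e-04). It was -1.02 in experiment 1 (IBA and Ent minus SpD) and -3.02 in experiment 2. SpD minus IBA was 2.53 ± 0.58 (SE) (q = 0.00629) with no overlap. K113 was at 7.85 and K137 at 11.89.

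3 more alpha and mu class genes were lower in IBA. GSTA1 and GSTA3 were lower in IBA than SA by -0.90 ± 0.22 (SE) (q = 0.00487) and -0.72 ± 0.18 (SE) (q = 0.00738), and GSTM2 by -1.18 ± 0.29 (SE) (q = 0.00594), all without overlap. Gstk1, a mitochondrial and peroxisomal form, fell by 0.46 on the log2 scale in IBA against SA (q = 0.00306), rose in Ent (0.31 ± 0.088 (SE), q = 0.023) and was higher in SpD than IBA (0.32 ± 0.088 (SE), q = 0.0176). The Ent call of Gstk1 was lost in 6 of 36 other settings, without IBA 70, 75 or 104 or Ent 167 among them, and the SpD call in 5, without IBA 70 or 104 or SpD 80 among them. In experiment 2 alone the SpD difference was 0.12 (q = 0.675). Gstm3 was higher in hibernation by 0.18 ± 0.059 (SE) (q = 0.019) and differed by 0.032 ± 0.11 (SE) between IBA and SA (q = 0.865), the seasonal call being lost without SA 139. Gsta4, which handles 4-hydroxynonenal, had 0.30 ± 0.14 (SE) in IBA against SA (q = 0.117) and was not called anywhere. Gsto1 (q = 0.764) and Gstp1 (q = 0.397), the omega and pi forms, were among the 3 genes nearest to no difference across states. The state means of Gsto1 spanned 0.12, from 10.47 in SpD to 10.58 in Ent, so among the glutathione transferases the range of state means ran from 0.12 (Gsto1) to 2.53 (GSTA2).

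Mgst3, a microsomal enzyme with glutathione transferase and peroxidase activity, was the 1 gene of the 40 that was higher in hibernation at q under 0.001. It was at 13.13, 13.18, 13.50 and 13.63 in SA and 13.00, 13.17, 13.23, 13.24 and 13.65 in SpD. The hibernation values were 13.31, 13.47, 13.54, 13.68 and 13.72 in IBA, 13.65, 13.66, 13.67, 13.68 and 14.01 in Ent, 13.61, 13.65, 13.70, 13.70 and 13.72 in EAr and 13.65, 13.71, 13.71, 13.74 and 13.83 in LAr. The groups overlapped, since 2 SA kidneys and 1 SpD kidney lay above the lowest hibernation value. The difference by season was 0.36 ± 0.068 (SE) (q = 2.82e-04), with 0.26 in experiment 1 (IBA and Ent minus SpD) and 0.43 in experiment 2. Without the SA animals 138 or 139 it no longer passed q under 0.001. Mgst1, by contrast, was lower in IBA than SA (-0.68 ± 0.16 (SE), q = 0.00348) and was the 1 gene of the 40 with all SA kidneys above all SpD kidneys, a pattern of 4.04% of all genes (0.56 ± 0.16 (SE), q = 0.0276, not called without K130 or without the SA animals 139, 140 or 141).

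All 3 UGT genes were lower by season and lower in IBA than SA at q under 0.05. The seasonal calls were lost in experiment 2 alone, with q = 0.228 for UGT1A1, 0.12 for UGT1A9 and 0.113 for UGT2A1, and that of UGT2A1 also without K130, SpD 77 or SA 138, 140 or 141. UGT1A9, a form that conjugates phenols, was at 10.72, 10.75, 10.97 and 11.34 in SA and 9.81, 10.10, 10.15, 10.22 and 10.35 in IBA. It was at 10.17, 10.37, 10.37, 10.43 and 10.52 in Ent, 10.31, 10.31, 10.52, 10.55 and 10.67 in EAr, 10.24, 10.39, 10.39, 10.57 and 10.65 in LAr and 9.83, 10.39, 10.49, 10.77 and 11.01 in SpD. All SA kidneys lay above all hibernation kidneys. The difference was -0.98 ± 0.15 (SE) for IBA minus SA (q = 8.06e-05) and 0.61 ± 0.15 (SE) for SA minus SpD (q = 0.0146), the latter not called without K130 or the SA animal 139. The call across states (q = 7.18e-04) was lost in 24 of 36 other settings, with q up to 0.064.

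UGT1A1, the bilirubin-conjugating form, was at 15.16, 15.36, 15.46 and 15.48 in SA and 14.33, 14.45, 14.53, 14.53 and 14.86 in IBA (-0.95 ± 0.18 (SE), q = 8.56e-04), just under the threshold, and lost the call in 25 of 36 other settings. By experiment, SpD minus IBA was 0.74 and -0.24 for UGT1A1 and 0.64 and -0.04 for UGT1A9 in experiments 1 and 2, where K130 is 1 of the 2 SpD kidneys of experiment 2. UGT1A forms share their last exons, so these rows may share reads, and all 4 rows named UGT1A9 were lower in IBA than SA at q under 0.05, by 0.56 to 0.98 on the log2 scale (-0.56 to -0.98). UGT2A1 had the widest spread of this family, at 8.97, 10.93, 11.71 and 12.09 in SA and 7.80, 9.05, 9.14, 9.27 and 9.77 in IBA (-2.09 ± 0.69 (SE), q = 0.0319), a call lost in 6 of 36 other settings, among them without SA 138, 140 or 141 or IBA 171.

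The sulfotransferases SULT1A1, SULT1A2 and SULT1C2, which sulfate phenols, were lower in IBA than SA. SULT1A2 was at 7.38, 7.71, 7.82 and 7.88 in SA and 5.90, 6.89, 7.29, 7.31 and 7.57 in SpD. It was at 5.78, 6.12, 6.15, 6.27 and 6.30 in IBA, 5.56, 5.92, 6.20, 6.65 and 6.97 in Ent, 5.91, 6.04, 6.26, 6.34 and 6.49 in EAr and 6.05, 6.07, 6.30, 6.30 and 6.84 in LAr. The 4 SA kidneys lay above all hibernation kidneys, the one state in which it reached the filter level, and the difference was -1.12 ± 0.16 (SE) by season (q = 1.54e-05) and -1.71 ± 0.29 (SE) for IBA minus SA (q = 3.05e-04). The call across states (q = 2.52e-04) was lost without the SA animals 138, 140 or 141, and that in IBA against SA also without the IBA animal 104. SULT1C2 was at 12.20, 12.22, 12.45 and 12.53 in SA and 11.33, 11.44, 11.70, 11.83 and 11.83 in IBA, with no overlap, and also lay wholly below LAr and Ent in IBA (-0.83 ± 0.16 (SE) against SA). SULT1A1 differed by -1.03 ± 0.35 (SE) between IBA and SA (q = 0.0376), a call lost in 9 of 36 other settings, among them without SA 138, 140 or 141 or IBA 69, 104 or 171, with q up to 0.131. Sult2b1, a sterol sulfotransferase, was under the filter level and lower in hibernation by -0.76 ± 0.26 (SE) (q = 0.025), a call lost without K130, which had the highest SpD value at 8.59, and without the SA animals 138 or 139.

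Within the torpor-arousal cycle the share of the 40 genes called at q under 0.05 was close to that of all genes in each step. From IBA to Ent limma called no gene of the 40 at q under 0.001, against 0.746% of all genes, and 5 at q under 0.05 (12.5%), against 13.1%, while 10 had an unadjusted p under 0.05. CYP3A4, FMO5 and Gstk1 were higher in Ent, as were 5.52% of all genes, and CYP1A1 and CYP2S1 were lower, as were 7.61%. No gene was called by limma from Ent to EAr or from EAr to LAr at q under 0.05, where 3 and 1 of the 40 had an unadjusted p under 0.05. In all genes 0.257% and 0.575% were called at q under 0.05 in these 2 steps, and 0.132% and 0.295% at q under 0.001. The smallest q was 0.539 (CYP4V2) from Ent to EAr and 0.303 (CYP1A1) from EAr to LAr. From LAr to IBA 7 genes (17.5%) differed at q under 0.05, against 18% of all genes, and all 7 were lower in IBA, where 8.03% of all genes were lower and 9.93% higher. None reached q under 0.001 in limma, against 1.43% of all genes, and 15 had an unadjusted p under 0.05. These were CYP3A4, CYP3A43, CYP3A5, GSTM4, Gstk1, SULT1C2 and UGT1A9, and all 7 were also among the 25 lower in IBA than in SA, a comparison that shares the IBA animals. With all 31 animals none of these 7 was called, and with animal weights 14 genes were.

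Leaving hibernation, 10 of 40 genes (25%) differed between SpD and IBA at q under 0.05, against 11.9% of all genes, 9 higher in SpD and CYP2S1 lower, directions taken by 6.48% and 5.42% of all genes. The 9 were CYP2J2, CYP3A4, CYP4B1, FMO5, GSTA1, GSTA2, GSTM4, Gstk1 and SULT1A2. Of the 25 genes lower in IBA than SA, 24 had a positive estimate and 8 were called in SpD minus IBA. The 25 were chosen as low in the same IBA animals, so these counts are no support for a rise in SpD. Among the 36 genes above the filter level in every group, 8 differed at q under 0.05, all of them higher in SpD. At q under 0.001 it was GSTM4 alone (2.5%), against 1.25% of all genes. Without K130 the count at q under 0.05 was 18 and at q under 0.001 it was 3, and without the IBA animal 104 or the SpD animal 80 it was 6 at q under 0.05. Between the active states, 7 genes differed between SA and SpD at q under 0.05 (17.5%), against 10.5% of all genes. In limma none passed q under 0.001, against 0.0544% of all genes, and 17 had an unadjusted p under 0.05. Ephx2, Mgst1, UGT1A1 and UGT1A9 were higher in SA, as were 5.47% of all genes, and CYP4A11, CYP4A22 and Ephx3 were lower, as were 5.01%. Without K130 none of the 7 was called, without the SA animals 138, 139 and 140 the counts were 4, 2 and 2, and in experiment 2 alone, with 2 SpD animals, it was 15. SA and EAr did not overlap in 14 of 40 genes, against 26.4% of all genes, 11 of them higher and 3 lower in SA, where 13.3% and 13.2% of all genes were.

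2 genes differed between females and males at q under 0.05, against 0.218% of all genes (28 genes), and both were CYP3A genes lower in females, as were 0.117% of all genes. CYP3A43 differed by -0.59 ± 0.12 (SE) (q = 0.0279) and CYP3A5 by -0.50 ± 0.11 (SE) (q = 0.0416). All males lay above all females of their state in 5 of 6 states for CYP3A43 and in 4 of 6 for CYP3A5. In all genes, 46 (0.358%) showed this in at least 4 states and 7 (0.0544%) in at least 5. In IBA, for example, CYP3A43 was at 14.55, 14.94 and 15.20 in females and 15.31 and 15.64 in males. In Ent it was at 15.25, 15.28 and 15.64 in females and 15.93 and 15.97 in males, and in LAr the sexes overlapped.

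The direction was the same in both experiments, with -0.82 and -0.58 for CYP3A43 and -0.74 and -0.48 for CYP3A5 in experiments 1 and 2. Another CYP3A43 row (CYP3A43_gene26273, -0.53 ± 0.11 (SE), q = 0.0447) and another CYP3A4 row (CYP3A4_gene23679, -0.40 ± 0.079 (SE), q = 0.0279) differed likewise. The kept CYP3A4 row did not (-0.053 ± 0.078 (SE), q = 0.928). The remaining rows, CYP3A43_G40866 and CYP3A5_gene23663, were not called at q under 0.05. In these, all males lay above all females in 0 and 1 of 6 states. CYP3A copies may share reads, so the rows that differed likewise are not independent support for a sex difference. None of the 40 was called at q under 0.001, against 0.0233% of all genes, and 6 had an unadjusted p under 0.05. The calls were close to the threshold, since CYP3A5 was lost in 25 and CYP3A43 in 11 of 36 other settings, and both with all 31 animals and in experiment 2 alone. No gene of the 40 had a seasonal difference that differed between the sexes at q under 0.05, and in all 12863 genes 0% did at either threshold.

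**Figure D5:**
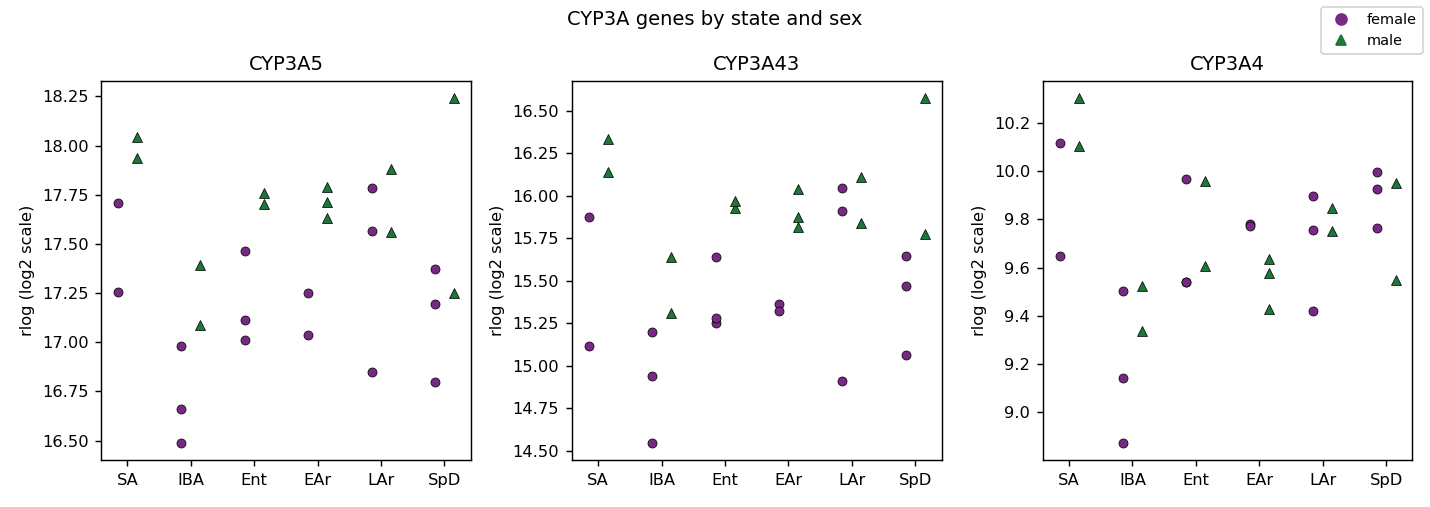
The rlog values (log2 scale) of CYP3A5, CYP3A43 and CYP3A4 in the 29 kidneys by state, females as purple circles and males as green triangles. Males lie above females in 4 of 6 states for CYP3A5 and 5 of 6 for CYP3A43, and not in CYP3A4.

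The receptors and factors known to control these enzymes were described from a list of 26, of which 25 were in the table. 9 of the 25 differed between IBA and SA at q under 0.05, 8 lower and 1 higher, with a median difference of -0.11, where 12.5% of all genes were lower and 10.4% higher. Those shares of all genes, 22.9% together, are the background of each list below as well. NR1I2, which encodes PXR, and NR1I3, which encodes CAR, were lower in IBA by -0.93 ± 0.20 (SE) (q = 0.00195) and -0.96 ± 0.24 (SE) (q = 0.00575). AHR (q = 0.19), NFE2L2 (q = 0.0882), which encodes NRF2, and HNF4A (q = 0.174) were not called across states. AHR differed by 0.019 ± 0.058 (SE) by season, against -1.94 ± 0.22 (SE) for CYP1A1. The activity of AHR was not measured, and its part in the CYP1A1 result was not tested.

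Most genes whose products serve the P450 enzymes were not called. POR, which passes electrons to all microsomal P450s, was not called across states (q = 0.292) and differed by 0.044 ± 0.12 (SE) between IBA and SA (q = 0.83). Of 11 such partners and heme synthesis genes in the table, 3 were lower in IBA than SA at q under 0.05 and none higher. Of all genes 12.5% were lower and 10.4% higher. At q under 0.001, 2 of the 11 were lower in IBA, against 2.46% of all genes. FECH, the last enzyme of heme synthesis, was called across states (q = 8.95e-04, -0.59 ± 0.091 (SE) in IBA against SA). Of 6 other P450 genes, 3 were lower in IBA at q under 0.05, against 12.5% of all genes. CYP27A1, a sterol 27-hydroxylase, and CYP46A1, a cholesterol 24-hydroxylase, were called across states at q = 3.53e-04 and 8.88e-04, with -0.94 ± 0.14 (SE) and -0.47 ± 0.08 (SE) by season.

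Other phase I enzymes followed the same direction, with 13 of 18 lower and 1 higher in IBA than SA at q under 0.05 and a median of -0.66, against 12.5% lower and 10.4% higher of all genes. Those called across states at q under 0.001 included ALDH1A1, a retinal dehydrogenase (-1.70 ± 0.17 (SE) by season, q = 1.55e-07), CBR1, a carbonyl reductase (-0.74 ± 0.13 (SE), q = 1.10e-04), and ADH5, which oxidizes S-hydroxymethylglutathione (-0.32 ± 0.062 (SE), q = 3.75e-04). DPYD and DPYS, the enzymes of pyrimidine and fluorouracil breakdown, differed by -0.99 ± 0.15 (SE) (q = 1.21e-04) and -0.80 ± 0.12 (SE) (q = 8.15e-05) in IBA against SA. PON2, a lactonase, rose in hibernation (0.47 ± 0.051 (SE), q = 5.09e-07). Of 16 genes of other conjugation reactions and cofactor supply, 6 were lower and none higher in IBA at q under 0.05, against the same shares of all genes. GCLC, the catalytic subunit that makes the glutathione precursor, was called across states (q = 4.45e-04) but differed by 0.15 ± 0.083 (SE) between IBA and SA (q = 0.204). Of 13 transporters, 5 were lower and 1 higher in IBA at q under 0.05, where 12.5% and 10.4% of all genes were, and the efflux pump ABCG2 was called across states (-1.73 ± 0.27 (SE) in IBA against SA, q = 1.31e-04). All these lists were measured against the same SA and IBA animals as the 40 genes.

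Markers of other cells of the kidney and its surroundings were read in the same fit. None of the 16 markers of the loop of Henle, principal cells, intercalated cells, inner medulla, endothelium, macrophages and red blood cells was called between IBA and SA at q under 0.05, and the distal convoluted tubule marker TRPM6 was lower in IBA. Their seasonal counts are given with the seasonal result above. None of the 6 adrenal cortex genes was in the table, among them STAR and CYP17A1, and of 5 hepatocyte genes ALB and FGB were present, at a mean level between 10.68 and 11.06 in the SA kidneys and between 9.75 and 10.53 in the IBA kidneys, with FGB lower in IBA at q under 0.05. The principal cell markers had mean levels of 13.02 in SA, 13.44 in SpD, 12.83 in IBA, 12.75 in Ent, 12.67 in EAr and 12.71 in LAr. The part of these marker differences in the results was not tested.

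The position of the genes beside each other was read from RefSeq. 46 of the 54 rows, and 38 of the 40 genes, had a RefSeq gene in mIctTri1.hap1, a different assembly from the authors', so it served only to tell which genes neighbor each other. FMO1, Fmo2 and Fmo4 lie near each other, and IBA minus SA ran from -1.14 ± 0.31 (SE) in FMO1 to -0.60 ± 0.22 (SE) in Fmo4. CYP4B1 lies beside the CYP4A rows, and CYP4B1 was -0.72 ± 0.10 (SE) and CYP4A11 0.72 ± 0.23 (SE) by season. The alpha class group holds GSTA1, GSTA2 and GSTA3, lower in IBA than SA, and Gsta4, which was not called. For the 9 symbols on more than 1 row, the IBA minus SA estimates of all rows of a symbol had the same sign.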

How the data were processed

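Kidney RNA-seq of 31 ground squirrels was analysed from 1 table of 12863 genes. The authors used cutadapt for trimming and HISAT2 to set mitochondrial reads aside, quantified transcripts of the HiC_Itri_2 assembly with Salmon and summed them to genes. The values that the authors deposited are on a log2 scale, as DESeq2 regularized log (rlog) values with the difference between the 2 experiments (library kits) removed by limma. The authors' methods give a filter of rlog 7 in 4 of 5 animals of a group, but 214 listed genes, 3 of the 40 among them, reach this level in 4 animals of no state in the 29 animals used here. Counts were not analysed here, so the depth of each library is unknown and no counting interval can be given. Because the experiment difference was removed before deposit, p-values may be somewhat too small. The experiment term still fitted (experiment 2 minus 1) was below 0 in 32 of the 40 genes. Its median was -0.13, against -0.004 over all genes, and none of the 40 was called for it at q under 0.05. State means, medians by kidney and overlap counts were not adjusted for this term. The table holds no comparisons of the authors' own, and 0 columns of per-sample values were left unused.

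The 40 genes were matched by symbol. The genes, their families and the lists of related genes and markers were chosen with earlier results of these data known. Groups came from the sample labels, and each replicate was a separate animal. K113 and K137 were left out of the fit, as by the authors, and shown apart. A linear model with state, sex and experiment was fitted to all 12863 genes in 29 animals with limma 3.58.1 (R 4.3.3) with an intensity trend, and q values are Benjamini-Hochberg adjusted over all genes of each comparison. Reported were the F test across states, hibernation (mean of IBA, Ent, EAr and LAr) against active (mean of SA and SpD), pairs of states, sex, and sex by season. SDs are over animals, and SEs come from the model. No values were compared between genes. Summaries and figures used Python 3.11.15, pandas 2.3.3 and matplotlib 3.10.9.

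Genes were chosen for naming if called at q under 0.001, filled by q up to 12 per comparison among those under 0.05. The 3 genes nearest to no difference were added. Related genes were those called across states at q under 0.001 plus AHR, NR1I2, NR1I3, NFE2L2, HNF4A and POR. Values in every animal are given for part of these genes, and estimates, q values or ranges of state means for the rest. Values of 1 of the 40 genes and 1 related gene are not reported here, and both enter the counts. The other genes named were chosen after their values were seen. Alternatives were all 31 animals, no experiment term, no intensity trend, animal weights, experiment 2 alone, a mean level of at least 8, centering each animal, every matching row, q under 0.05, and leaving out each animal. The fit was tested on simulated data with 200 changed genes of 12863. For a log2 change of 1, 95.5% were recovered at q under 0.001 in hibernation against active states and 83% in IBA against SA, and for a log2 change of 0.5, 74.5% and 17%. RefSeq genes of the assembly mIctTri1.hap1 gave neighbors only, and no sequence or coordinate is given because the build differs from the authors'.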

Additional observations from a re-analysis of the deposited data

Results flagged for a closer look

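In each state the gap of the highest and lowest kidney to its nearest neighbor was set against the range of the group (Dixon's test) for 39 of the 40 genes. Of 234 groups of 4 or 5 kidneys, 19 (8.1%) had a kidney past the 95% critical value, where chance gives about 5%, or 1 in 20.

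In SA, CYP2E1 was high at 14.62 and Fmo2 at 11.91 in animal 139, CYP4V2 was high at 9.76 and CYP2J2 low at 9.50 in animal 138, and GSTA2 was low at 8.84 and Sult2b1 at 5.72 in animal 140. In IBA, animal 75 stood apart with CYP4A22 at 15.98 and FMO5 at 8.99. In Ent, animal 66 stood apart with CYP4A22 at 15.04, Mgst1 at 14.06 and Mgst3 at 14.01. In EAr, Mgst1 was at 13.19 in animal 157. In LAr, CYP3A43 was at 14.91 and CYP4A11 at 12.74 in animal 109, CYP2R1 at 8.10 and CYP4F3 at 11.35 in animal 112, and CYP4A22 at 15.58 in animal 116. In SpD, Gstk1 was low at 11.94 and SULT1C2 at 11.19 in K130. These are values of single kidneys, and no cause was tested.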

How the results depend on the processing

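The 89 results of single genes were differences with a direction and the 5 calls across states, which have none. No difference changed its direction in any refit. Of all 3193 refits of the 89 results, 448 no longer passed their threshold. Counts are of the 40 genes, in the order first named. Counting calls at q under 0.05 in place of 0.001 gave 26 across states, 25 by season, 7 in SA against SpD, 28 in IBA against SA, 5 in Ent against IBA, 7 in IBA against LAr, 10 in SpD against IBA and 2 between sexes. With all 31 animals, 15 were called across states, 17 in IBA against SA and 0 in SA against SpD, Ent against IBA, IBA against LAr and between sexes at q under 0.05, and 1 in IBA against SA at q under 0.001. With animal weights, the counts at q under 0.001 were 11 across states, 12 by season, 8 in IBA against SA, 2 in Ent against IBA and 4 in SpD against IBA, and at q under 0.05 they were 0 in SA against SpD, 15 in Ent against IBA, 1 in LAr against EAr, 14 in IBA against LAr, 20 in SpD against IBA and 1 between sexes. In experiment 2 alone, which holds 2 animals each of IBA, Ent and SpD, they were 1 in IBA against SA and 0 in SpD against IBA at q under 0.001, and 13 by season, 15 in SA against SpD, 0 in Ent against IBA, 1 in IBA against LAr, 4 in SpD against IBA and 0 between sexes at q under 0.05. Of all genes, 39% were called by season at q under 0.05 in experiment 2 alone. With every matching row (54) they were 8 across states, 9 in IBA against SA and 2 in SpD against IBA at q under 0.001, and 13 in IBA against LAr and 4 between sexes at q under 0.05. Without the experiment term 4 were called in IBA against LAr at q under 0.05, and with each animal centered 1 between sexes. The other counts, and all those without the intensity trend or with a mean level of at least 8, stayed within 1.5 times of the main count. The cause of these shifts was not tested.

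When single animals were left out, the counts at q under 0.001 were 3 to 7 across states, 5 to 10 by season, 2 to 7 in IBA against SA and 0 to 3 in SpD against IBA. At q under 0.05 they were 22 to 28 across states, 20 to 27 by season, 0 to 10 in SA against SpD, 21 to 28 in IBA against SA, 0 to 7 in Ent against IBA, 4 to 13 in IBA against LAr, 6 to 18 in SpD against IBA, 0 to 2 between sexes and 0 to 1 for sex by season. The counts in IBA against LAr were 4 without IBA 104, LAr 111, LAr 112 or LAr 116 and 13 without IBA 171, and sex by season reached 1 without LAr 116 or SA 141. No paired analysis was possible because each animal has its own number. Depth is unknown, and 4 or 5 animals a state limit the pairs more than the seasonal comparison.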
